A study of Danio rerio with 20 samples.

Results

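Nucleolar ribosome assembly factors are the proteins that build ribosomal subunits around newly made ribosomal RNA. Their transcripts were followed in the livers of zebrafish larvae with and without arsenite, in wild type and in mutants of as3mt. The group was fixed by name, as 36 genes chosen with earlier results of these data known. Of these, 35 were found among the 32105 gene identifiers counted, with 1 identifier each. All 35 were abundant enough to be tested, among 16389 tested genes. The gene pes was not found under its own symbol. The name table holds an entry PES1, whose values are given separately and are not counted with the 35. Members are written in the zebrafish form, and other genes as that table prints them.

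Ribosomal RNA is transcribed by RNA polymerase I in the nucleolus, and the growing transcript is bound at once by assembly factors. Small nucleolar RNPs guide its chemical modification, the small-subunit processome folds and cuts its leading part, and separate factors build the large subunit. Most of these factors leave before the subunits work in the cytoplasm, so they are distinct from the ribosomal proteins that stay in the ribosome. The liver makes many secreted proteins and therefore needs many ribosomes.

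Each library was poly(A) RNA from a pool of 12 to 15 microdissected livers, taken about 119 h after fertilization. Wild-type larvae were of the TAB5 strain. Mutants carried on both chromosomes an as3mt allele made by CRISPR that lacks 8 bp of exon 3, on the ABNYU background, so allele and strain differ together and every genotype difference is between these 2 lines. The enzyme encoded by as3mt methylates inorganic arsenic. Larvae of both genotypes stayed without arsenite or received 1 mM sodium arsenite from 96 h, and each of the 4 groups held 5 libraries. A replicate is a pool of livers, and p-values measure the spread between pools.

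Library totals ran from 25406597 to 42047561 counts. The as3mt transcript, most of which the small deletion leaves countable, was at 125 ± 7.09 CPM (SD, n = 5) in unexposed wild type and 72.7 ± 9.3 in unexposed mutants. With arsenite it was at 45.9 ± 18.4 in wild type and 13.1 ± 4.21 in mutants. CPM are counts scaled to a common library size after TMM scaling, a correction for differences in library composition. In a principal component plot exposed wild-type replicate 5 lay at 29.6 on the first component, where the other exposed wild-type libraries lay at 55.7 to 74.7. Unexposed wild-type replicate 2 lay at -5.94 on the second component, where the others of its group lay at -49.9 to -38.6. All 21 hepatocyte marker genes fell with arsenite in both genotypes, and 19 of 21 when counts were scaled to library totals. Their summed level went from between 308000 and 332000 CPM to between 86800 and 153000 in wild type, and from between 258000 and 294000 to between 50100 and 75700 in mutants. None of these markers was at 0. Endothelial markers fell for 12 of 15 and rose for 1 in wild type and fell for 13 and rose for 1 in mutants, or fell for 3 and 9 when scaled to library totals, and their summed level went from between 204 and 302 to between 122 and 144 CPM in wild type and from between 240 and 290 to between 87.9 and 95.5 in mutants. Intestine markers fell for 3 of 6 and rose for 1 in each genotype. Scaled to library totals 2 of them fell and 2 rose in each genotype. Their summed level went from between 3520 and 5730 to between 1040 and 1470 CPM in wild type. In mutants it went from between 3010 and 5080 to between 574 and 1020. FABP6 was at 0 in every group but unexposed wild type. The part of these marker lists in the changes of the assembly factors was not tested. In such bulk samples fewer cells of a type and less RNA per cell cannot be told apart. Scaling counts to library totals in place of TMM moved the median log2 change of all genes with arsenite. It went from 0.03 to 0.75 in wild type and from -0.00 to 0.83 in mutants. All 35 assembly factors rose in both, as did 9738 of all 16389 tested genes in wild type and 9842 in mutants. The changes below use TMM and are relative to the typical gene.

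In wild type, arsenite raised the transcripts of 31 of 35 assembly factors and lowered none, and in mutants it raised 32 and lowered 1. Among all tested genes 28.7% rose and 24.6% fell in wild type, and 31.5% rose and 30.3% fell in mutants (edgeR, adjusted p under 0.05 in each case). The list was chosen with earlier results of these data known, so such shares describe it and do not test it. The median log2 change of the 35 was 0.46 in wild type, with a range from -0.23 to 1.06, and 0.73 in mutants, with a range from -0.37 to 1.55. The factors not called in wild type were nop56, wdr43, utp18 and ltv1, and those not called in mutants were nop10 and wdr43. Averaged over the 35, the log2 CPM of a library was 5.26 to 5.5 in unexposed wild type and 5.67 to 5.99 in exposed wild type. Unexposed mutants gave 5.03 to 5.47 and exposed mutants 5.9 to 6.07, so neither genotype's exposed libraries overlapped its unexposed ones.

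**Figure D1:**
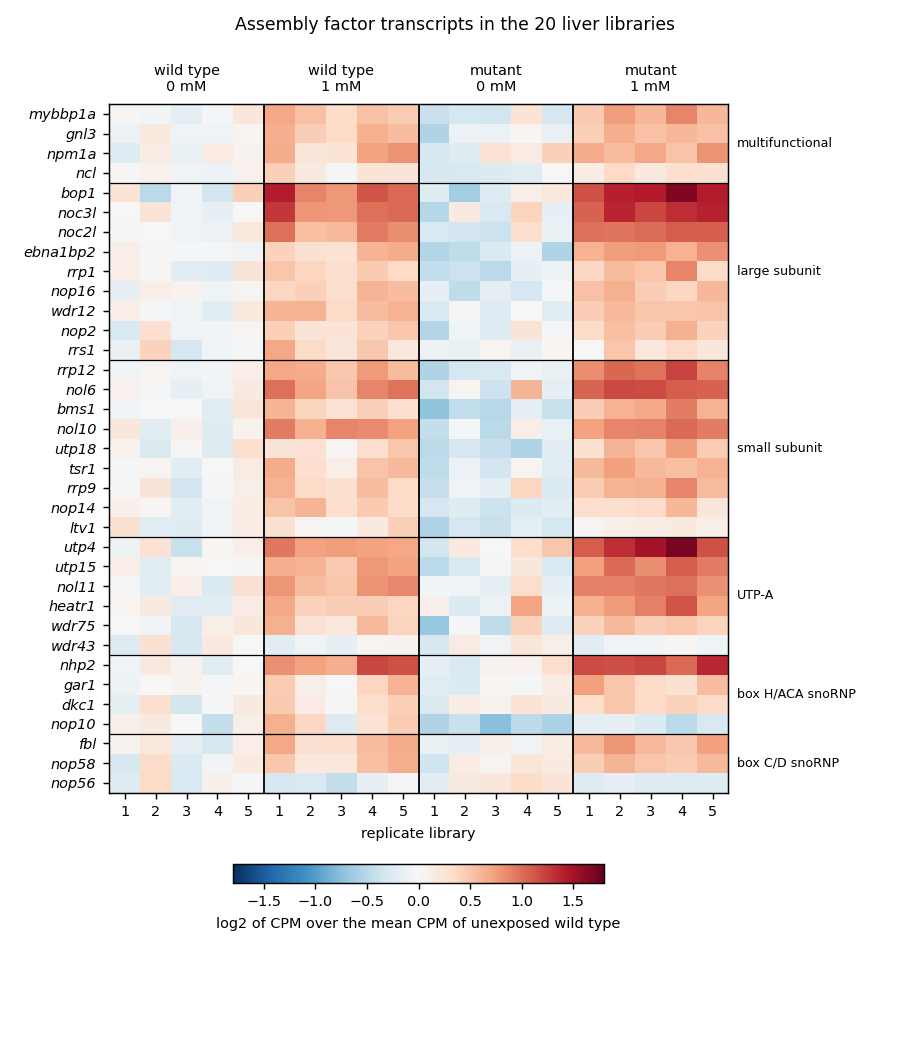
Transcripts of 35 assembly factors (rows, by role) in the 20 liver libraries (columns, 5 per group). Colour is the log2 ratio of a library's CPM to the mean CPM of unexposed wild type. Both exposed groups are higher in most rows, apart from nop56 and wdr43, and nop10 is low in mutants.

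Taken gene by gene, all 5 exposed libraries lay above all 5 unexposed ones for 22 of 35 factors in wild type and for 29 of 35 in mutants, and for no factor did they all lie below. Among all tested genes that separation held upward for 18.7% in wild type and 25.1% in mutants, and downward for 16.1% and 23.1%. Depth was ample, since the lowest count of any member in any library was 218, for nop10, and the highest was 40453, for ncl. The median coefficient of variation within a group was 11.8% for unexposed and 11.2% for exposed wild type, and 13.9% in unexposed and 8.4% in exposed mutants. Leaving out exposed wild-type replicate 5 left 24 factors raised and 1 lowered in wild type. Without that library and unexposed wild-type replicate 2, 26 were raised and none lowered.

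The box C/D snoRNPs place methyl groups on ribosomal RNA. Of the 3 core proteins of theirs that are among the members, fbl and nop58 rose in both genotypes while nop56 did not. The methyltransferase of the complex is fbl (ENSDARG00000053912). Its CPM in replicates 1 to 5 were 118, 128, 102, 92.4 and 122 in unexposed and 182, 136, 138, 165 and 179 in exposed wild type. In mutants they were 104, 102, 121, 108 and 123 without and 168, 195, 168, 158 and 188 with arsenite. The groups did not overlap in either genotype. The rise was 1.42-fold in wild type (log2 0.51 ± 0.11 SE, edgeR adjusted p = 0.000595) and 1.57-fold in mutants (log2 0.65 ± 0.11, edgeR adjusted p = 3.18e-05). The scaffold protein nop58 rose by log2 0.43 ± 0.13 in wild type and 0.47 ± 0.13 in mutants (edgeR adjusted p = 0.0096 and 0.00411), and its call in wild type was lost without exposed replicate 5 (edgeR adjusted p = 0.0527).

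Its partner nop56 (ENSDARG00000012820) was the 1 factor lowered by arsenite in mutants. Unexposed mutant libraries held 155, 197, 203, 223 and 208 CPM and exposed ones 152, 159, 151, 150 and 152. In wild type the values were 151, 224, 146, 189 and 174 without and 144, 146, 131, 160 and 172 with arsenite. In mutants 4 of the 5 unexposed libraries exceeded every exposed one, and in wild type the groups overlapped widely. The log2 change was -0.37 ± 0.12 in mutants (edgeR adjusted p = 0.00848) and -0.23 ± 0.12 in wild type (edgeR adjusted p = 0.101), and scaled to library totals it was 0.46 and 0.48, in the other direction. Without exposed wild-type replicate 5 the wild-type value of -0.32 was called (edgeR adjusted p = 0.0293), as was the value of -0.29 without unexposed wild-type replicate 3 (edgeR adjusted p = 0.0452).

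The box H/ACA snoRNPs turn chosen uridines of ribosomal RNA into pseudouridine, and all 4 of their core proteins were called higher in wild type and 3 of 4 in mutants. The largest change was that of nhp2 (ENSDARG00000069422). Its libraries held 21.8, 25.5, 24, 20.1 and 22.9 CPM in unexposed and 40.5, 37.7, 35.8, 52.7 and 50.7 in exposed wild type. In mutants they held 20.6, 19.1, 23.8, 24.2 and 28.2 without and 51.5, 50.9, 52.7, 46.3 and 58.6 with arsenite. No exposed library came near an unexposed one. The rise was 1.9-fold in wild type (log2 0.93 ± 0.12, edgeR adjusted p = 2.7e-06) and 2.24-fold in mutants (log2 1.16 ± 0.12, edgeR adjusted p = 6.95e-08).

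The smallest protein of the same complex, nop10 (ENSDARG00000104227), was lower in mutants at both doses and was called with arsenite in wild type and not in mutants. Its CPM were 16.1, 16.9, 15.2, 11.2 and 16.3 in unexposed and 23.6, 19.6, 12.9, 18.1 and 20.8 in exposed wild type. Mutant libraries held 10.4, 11.5, 9.02, 10.9 and 10.2 without and 13.5, 13.7, 12.8, 10.8 and 12.5 with arsenite. Exposed and unexposed libraries overlapped in both genotypes. The arsenite change was 0.33 ± 0.14 on the log2 scale in wild type (edgeR adjusted p = 0.0495) and 0.28 ± 0.14 in mutants (edgeR adjusted p = 0.0829). The wild-type calls of nop10, dkc1, the pseudouridine synthase (log2 0.29 ± 0.12, edgeR adjusted p = 0.047), and ncl, nucleolin (log2 0.22 ± 0.09, edgeR adjusted p = 0.0426), lay at the threshold. All 3 were lost without unexposed wild-type replicate 1, 3 or 4 or exposed wild-type replicate 1, 4 or 5, among other libraries, with edgeR adjusted p from 0.0569 to 0.173 for these 6. With no library left out, all 3 were also lost with DESeq2 size factors (edgeR adjusted p from 0.0787 to 0.103). The same held for the DESeq2 Wald test (DESeq2 adjusted p from 0.0756 to 0.088). It also held with only the wild-type libraries fitted (edgeR adjusted p from 0.0796 to 0.103). In mutants the dkc1 call (edgeR adjusted p = 0.0313) was lost without unexposed replicate 1 or 3 or exposed replicate 2 or 4, with edgeR adjusted p from 0.0507 to 0.0977. The other H/ACA protein, gar1, rose by log2 0.33 ± 0.12 in wild type and 0.54 ± 0.12 in mutants (edgeR adjusted p = 0.0211 and 0.000406), and the wild-type call was lost without exposed replicate 1 (edgeR adjusted p = 0.0527) or 5 (edgeR adjusted p = 0.144).

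UTP-A is the complex that binds first to the nascent transcript, and 5 of its 6 subunits rose in each genotype, with a median log2 change of 0.57 in wild type and 0.83 in mutants. The subunit utp15 (ENSDARG00000002720) had 19.3, 15.5, 18.1, 17.8 and 18 CPM in unexposed and 27.9, 27.4, 24.6, 30.6 and 29.4 in exposed wild type. In mutants it had 12.7, 14.8, 17.3, 20.5 and 14.7 without and 29.5, 35.8, 31.8, 37.8 and 34 with arsenite. The exposed libraries stood clear of the unexposed in both genotypes. The log2 rise was 0.66 ± 0.11 in wild type (edgeR adjusted p = 6.12e-05) and 1.08 ± 0.11 in mutants (edgeR adjusted p = 6.73e-08).

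Its partner utp4 (ENSDARG00000017675) had 22.6, 28.8, 18.3, 24.8 and 26.2 CPM in unexposed wild type and 46.5, 39.8, 40.6, 39.7 and 39.1 in exposed wild type. Unexposed mutants had 19.2, 27.3, 24.3, 30.2 and 34 CPM, and exposed mutants 51.4, 60.6, 68.5, 79 and 53.6. Every exposed mutant library was above every exposed wild-type library, whereas the unexposed groups overlapped. The log2 rise with arsenite was 0.77 ± 0.15 in wild type (edgeR adjusted p = 0.000199) and 1.21 ± 0.15 in mutants (edgeR adjusted p = 5.83e-07). The subunits nol11, heatr1 and wdr75 rose by log2 0.71, 0.48 and 0.42 in wild type and by 0.93, 0.73 and 0.62 in mutants, and the wild-type call of wdr75 was lost without exposed wild-type replicate 1, 4 or 5 or unexposed replicate 3 (edgeR adjusted p from 0.0553 to 0.0694).

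The remaining UTP-A subunit, wdr43 (ENSDARG00000077264), passed the test in neither genotype. Wild-type libraries held 101, 143, 96.6, 133 and 117 CPM without and 103, 112, 107, 122 and 123 with arsenite. Mutant libraries held 97.1, 131, 113, 138 and 127 without and 104, 113, 114, 120 and 112 with arsenite. All 4 groups overlapped. The log2 change was -0.06 ± 0.11 in wild type and -0.11 ± 0.11 in mutants (edgeR adjusted p = 0.684 and 0.409), while scaled to library totals it was 0.66 and 0.72 and called, like most genes on that scale.

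**Figure D2:**
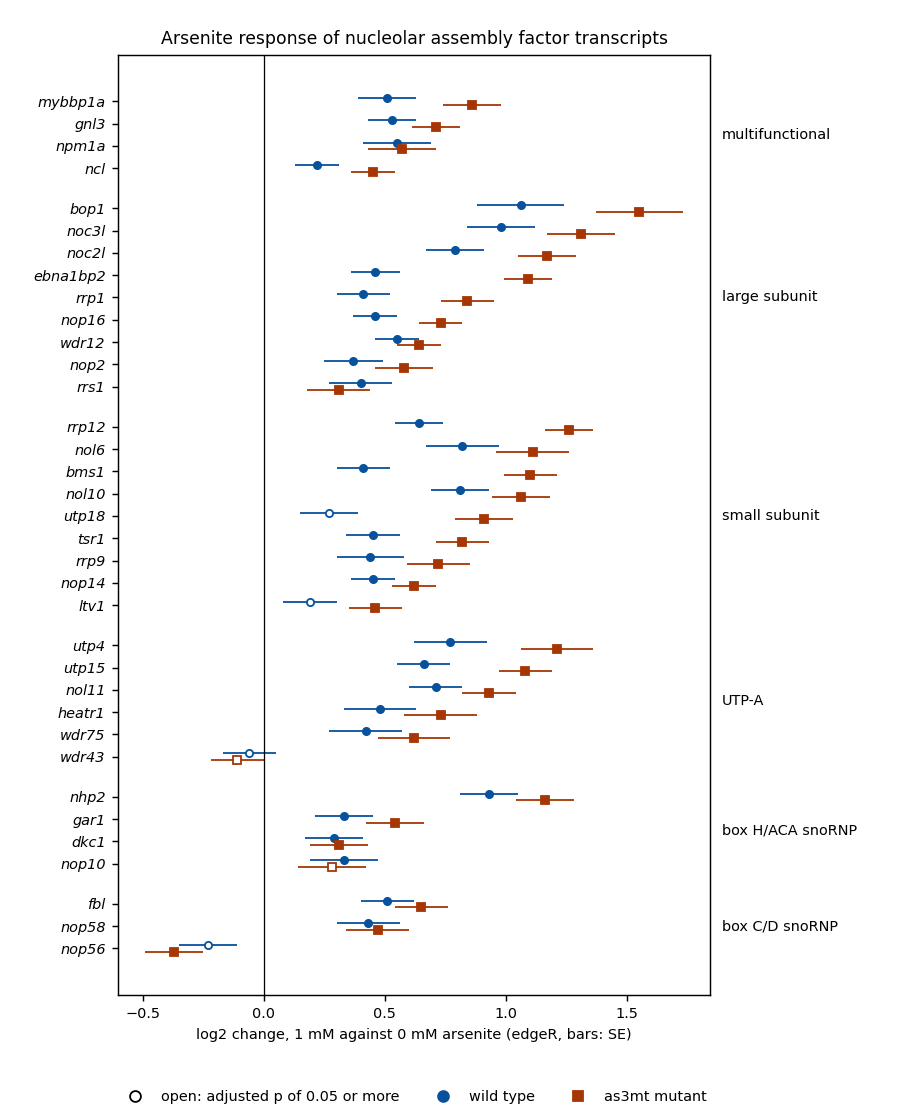
Log2 change with 1 mM arsenite for each assembly factor in wild type (circles) and as3mt mutants (squares), from edgeR, with bars of 1 SE, grouped by role. Open symbols have an adjusted p of 0.05 or more. The mutant symbol lies to the right of the wild-type symbol for 31 of 35 factors.

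The other small-subunit factors comprise the WD-repeat protein utp18, the GTPase bms1, the GTPase-like tsr1, rrp9, nol6, nol10, nop14, rrp12 and ltv1, and 7 of 9 rose in wild type and 9 of 9 in mutants. Their median log2 change was 0.45 in wild type and 0.91 in mutants. The HEAT-repeat protein rrp12 (ENSDARG00000022410), which in yeast is needed to export both subunits, had the smallest adjusted p of the 9 in mutants, and nol10 had it in wild type (edgeR adjusted p = 6.95e-06). The CPM of rrp12 were 103, 111, 102, 104 and 117 in unexposed and 174, 170, 150, 182 and 160 in exposed wild type. Mutants had 73.8, 86.4, 88.9, 102 and 97.5 without and 192, 219, 212, 249 and 200 with arsenite. Exposed libraries were clear of unexposed ones in both genotypes, and all exposed mutant libraries were above all exposed wild-type libraries. The rise was 1.56-fold in wild type (log2 0.64 ± 0.10, edgeR adjusted p = 1.15e-05) and 2.39-fold in mutants (log2 1.26 ± 0.10, edgeR adjusted p = 7.83e-10).

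The GTPase bms1 (ENSDARG00000054154) had 42.2, 44.6, 44.8, 39 and 51.6 CPM in unexposed and 68.2, 58.8, 53, 59.9 and 54.9 in exposed wild type. Mutants had 26.8, 32.7, 31.4, 39.6 and 33.8 CPM without and 60.5, 68.3, 71.6, 83.9 and 68.7 with arsenite. The unexposed mutants had the lowest mean and the exposed mutants the highest, with overlap between genotypes at both doses. Arsenite raised it by log2 0.41 ± 0.11 in wild type and by 1.1 ± 0.11 in mutants (edgeR adjusted p = 0.00407 and 4.02e-08).

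A called rise in mutants and an uncalled one in wild type were found for utp18 (ENSDARG00000102618), with 19.1, 15.1, 18.4, 15.6 and 22.2 CPM in unexposed and 21.3, 21.6, 18.5, 22.3 and 25.5 in exposed wild type. Mutants had 13.1, 14.6, 13.6, 12.3 and 15.8 without and 21.9, 27.6, 25.6, 30.6 and 24.7 with arsenite. Wild-type groups overlapped and mutant groups did not. The log2 change was 0.27 ± 0.12 in wild type (edgeR adjusted p = 0.0594) and 0.91 ± 0.12 in mutants (edgeR adjusted p = 1.29e-06). The wild-type change was called without unexposed replicate 5 (edgeR adjusted p = 0.0177) or exposed replicate 3 (edgeR adjusted p = 0.0325).

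The late factor ltv1 (ENSDARG00000008490) had 44.8, 32.6, 31.8, 35.5 and 40.6 CPM in unexposed and 45, 38.4, 36.6, 41.7 and 50 in exposed wild type. Mutants had 25.2, 30.1, 28.2, 32.8 and 29.7 without and 38.2, 40.2, 40.8, 41.9 and 40.1 with arsenite. Only the mutant groups were separate. The log2 change was 0.19 ± 0.11 in wild type (edgeR adjusted p = 0.131, and edgeR adjusted p = 0.0351 without unexposed replicate 1) and 0.46 ± 0.11 in mutants (edgeR adjusted p = 0.000755). Among the remaining small-subunit factors the largest rises were those of nol6 (log2 0.82 ± 0.15 in wild type and 1.11 ± 0.15 in mutants) and nol10 (0.81 ± 0.12 and 1.06 ± 0.12).

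All 9 large-subunit factors rose in both genotypes, with a median log2 change of 0.46 in wild type and 0.84 in mutants. The largest changes were those of bop1, which with pes and wdr12 forms the PeBoW complex of large-subunit rRNA processing. It rose 2.09-fold in wild type (log2 1.06 ± 0.18, edgeR adjusted p = 3.95e-05) and 2.93-fold in mutants (log2 1.55 ± 0.18, edgeR adjusted p = 2.24e-07). Its partner wdr12 rose by log2 0.55 ± 0.09 and 0.64 ± 0.09. The proteins noc2l and noc3l, which in yeast accompany large-subunit precursors out of the nucleolus, rose by log2 0.79 ± 0.12 and 0.98 ± 0.14 in wild type and by 1.17 ± 0.12 and 1.31 ± 0.14 in mutants. The third PeBoW subunit, read from the PES1 entry, rose by log2 0.49 ± 0.09 in wild type and by 0.97 ± 0.09 in mutants (edgeR adjusted p = 9.9e-05 and 9.58e-09).

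The factor ebna1bp2 (ENSDARG00000054980), the relative of yeast Ebp2, had 45.4, 40.7, 41.2, 40.9 and 40.1 CPM in unexposed and 55.3, 50.4, 50.1, 63.5 and 66.5 in exposed wild type. Mutants had 29, 30.3, 34.8, 38.9 and 28.5 without and 64.4, 70.4, 70.9, 64.3 and 73.5 with arsenite. All unexposed mutant libraries were below all unexposed wild-type ones, while the exposed groups overlapped. Arsenite raised it by log2 0.46 ± 0.10 in wild type and by 1.09 ± 0.10 in mutants (edgeR adjusted p = 0.000733 and 1.33e-08).

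The smallest rise among large-subunit factors in mutants was that of rrs1 (ENSDARG00000003941), which in yeast helps to bring the small ribosomal RNA of the large subunit into the particle. It had 30.3, 44, 26.9, 32 and 32.3 CPM in unexposed and 53.5, 42, 38.5, 46.2 and 37.6 in exposed wild type. Mutants had 31.1, 30.3, 34.1, 30.2 and 33.8 without and 33.4, 46.8, 37.7, 41.9 and 38.3 with arsenite. Groups overlapped in both genotypes, in wild type through unexposed replicate 2. The log2 rise was 0.40 ± 0.13 in wild type (edgeR adjusted p = 0.0117) and 0.31 ± 0.13 in mutants (edgeR adjusted p = 0.0362). The mutant call was lost without unexposed mutant replicate 1, 2 or 4 or exposed mutant replicate 2 or 4, with edgeR adjusted p from 0.0644 to 0.108. The rRNA methyltransferase nop2 rose by log2 0.37 ± 0.12 in wild type, a call lost without exposed replicate 5 (edgeR adjusted p = 0.0687), and by 0.58 ± 0.12 in mutants. The factors nop16 and rrp1 rose by log2 0.46 ± 0.09 and 0.41 ± 0.11 in wild type and by 0.73 ± 0.09 and 0.84 ± 0.11 in mutants.

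The 4 multifunctional nucleolar proteins, ncl, npm1a, gnl3 and mybbp1a, all rose in both genotypes, with a median log2 change of 0.52 in wild type and 0.64 in mutants. The Myb-binding protein mybbp1a (ENSDARG00000078214) had 68.3, 65.1, 59.9, 66.3 and 77.4 CPM in unexposed and 109, 97.6, 84.8, 97.5 and 92.5 in exposed wild type. Mutants had 51, 54, 53.6, 80 and 54.9 without and 93.6, 113, 102, 124 and 102 with arsenite. The groups were separate in both genotypes. The log2 rise was 0.51 ± 0.12 in wild type (edgeR adjusted p = 0.00111) and 0.86 ± 0.12 in mutants (edgeR adjusted p = 2.66e-06).

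The histone chaperone nucleophosmin, npm1a (ENSDARG00000014329), had 182, 235, 195, 237 and 225 CPM in unexposed and 341, 249, 255, 354 and 376 in exposed wild type. Mutants had 176, 184, 256, 237 and 288 without and 342, 318, 349, 308 and 375 with arsenite. Every exposed library was above every unexposed library of its genotype. The log2 rise was 0.55 ± 0.14 in wild type and 0.57 ± 0.14 in mutants (edgeR adjusted p = 0.00265 and 0.00162). Nucleostemin, gnl3, rose by log2 0.53 ± 0.10 and 0.71 ± 0.10.

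Without arsenite, mutants had lower levels of 5 of 35 factors and higher levels of none, where 7.91% of all tested genes were lower and 5.91% higher. The median log2 difference of the 35, mutant minus wild type, was -0.13. The lower factors were nop10 (-0.54 ± 0.14, edgeR adjusted p = 0.0133), bms1 (-0.44 ± 0.11, edgeR adjusted p = 0.0122), utp18 (-0.38 ± 0.12, edgeR adjusted p = 0.0356), ebna1bp2 (-0.36 ± 0.10, edgeR adjusted p = 0.0196) and ltv1 (-0.34 ± 0.11, edgeR adjusted p = 0.0351). Their groups overlapped slightly except for ebna1bp2, whose highest mutant library was at 38.9 and lowest wild-type library at 40.1 CPM. Scaled to library totals none of the 5 was called and the differences shrank to between -0.36 and -0.17, while the median of all genes moved from 0.00 to 0.18. Leaving out single libraries gave 2 to 6 lower factors, with the fewest without unexposed wild-type replicate 1, and 3 without unexposed wild-type replicate 5 or unexposed mutant replicate 1, 2, 3 or 5. The calls of ltv1, utp18 and ebna1bp2 were among those lost.

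With arsenite, mutants had more of utp4 (0.61 ± 0.15, edgeR adjusted p = 0.00547) and rrp12 (0.36 ± 0.09, edgeR adjusted p = 0.00965) and less of nop10 (-0.59 ± 0.14, edgeR adjusted p = 0.00422). Among all tested genes 7.68% were higher and 12.9% lower. The median log2 difference of the 35 was 0.14. The exposed mutant libraries were all above the exposed wild-type libraries for utp4, rrp12 and nol6, the last with a difference of 0.29 ± 0.15 that was not called (edgeR adjusted p = 0.171). The share of all tested genes separated in this way between the lines, without or with arsenite, was not computed. Whether such separation was more common among the factors than among all genes is therefore not known. Scaled to library totals 26 of 35 were higher and none lower, where 4294 of all 16389 tested genes were higher and 1176 lower. On that scale the nop10 difference was -0.31 with an adjusted p of 0.105, and the median of all genes moved from -0.03 to 0.25. Without unexposed mutant replicate 4, or without the 2 libraries that stand apart, 4 factors were higher and 1 lower. The PES1 entry was higher by 0.30 ± 0.09 (edgeR adjusted p = 0.0191), a call lost when exposed mutant replicate 3 or exposed wild-type replicate 2 or 3 was left out (edgeR adjusted p from 0.0514 to 0.0612).

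Summed pancreatic markers, from tissue that adjoins the liver, ran from 25.4 to 191 CPM in unexposed wild type and from 87.1 to 1370 in unexposed mutants, and from 4.74 to 41.8 and from 7.18 to 616 in the exposed groups. Of the 13 tested, 1 was called higher in mutants without arsenite and 4 with it, and PTF1A was at 0 in all groups except exposed mutants. Hepatocyte markers were lower in exposed mutants than in exposed wild type for 16 of 21, and endothelial markers for 7 of 15. Scaled to library totals those counts were 15 and 3. On that scale 3 pancreatic markers were higher in mutants without arsenite and 10 with it. The part of these marker lists in the genotype differences of the assembly factors was not tested.

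The arsenite response was larger in mutants for 4 of 35 factors and smaller for none, where 1.31% of all tested genes were called with a more positive and 2.67% with a more negative response. These were bms1, rrp12, ebna1bp2 and utp18, 3 of them small-subunit factors. The difference of the log2 changes, mutant minus wild type, was 0.70 ± 0.16 for bms1 (edgeR adjusted p = 0.0164), 0.63 ± 0.14 for ebna1bp2 (edgeR adjusted p = 0.0171) and 0.62 ± 0.13 for rrp12 (edgeR adjusted p = 0.0128). For utp18 it was 0.64 ± 0.17 (edgeR adjusted p = 0.035). The first 3 calls held when any single library was left out. The utp18 call was lost without exposed mutant replicate 2, 3 or 4, unexposed mutant replicate 1, 3 or 4, unexposed wild-type replicate 1, 3 or 5, or exposed wild-type replicate 2 or 3, with edgeR adjusted p from 0.0586 to 0.0701. Counting uncalled factors too, the difference was positive for 31 of 35 (88.6%), with a median of 0.24, against 45.3% of all tested genes and a median of -0.05. Scaled to library totals it was positive for 34 of 35 with a median of 0.35, and over all genes the median was 0.06, with 432 called more positive and 370 more negative. Under TMM it was also positive for 35 of 37 other small-subunit factors (median 0.35) and 51 of 57 genes listed as large-subunit factors (0.24). Of RNA polymerase I genes 17 of 18 were positive (median 0.25), and of RNA exosome genes 14 of 15 (0.26). Of ribosomal proteins 33 of 74 were positive (median -0.01). For all 4 called factors the unexposed mutants had the lowest mean of the 4 groups and the exposed mutants the highest. Between genotypes, rrp12 was not called without arsenite, and bms1, utp18 and ebna1bp2 were not called with it.

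**Figure D3:**
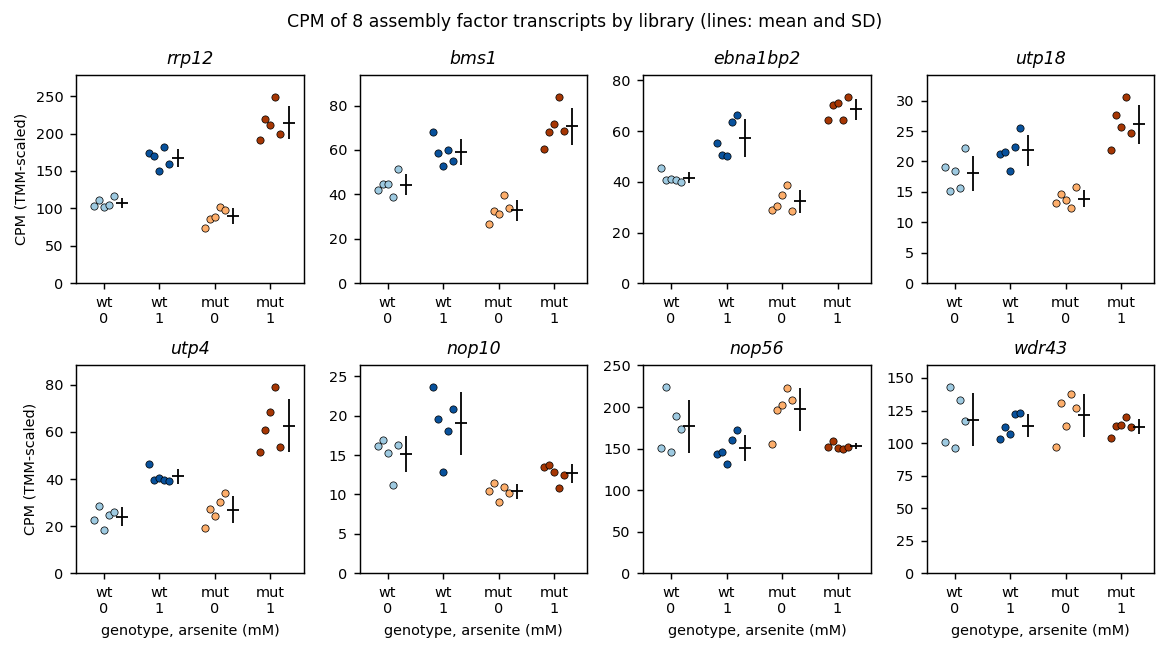
CPM of 8 assembly factors in each library (points), with the group mean and SD beside them, for wild type and mutants at 0 and 1 mM arsenite. In rrp12, bms1, ebna1bp2 and utp18 the unexposed mutants have the lowest mean and the exposed mutants the highest. The factor nop10 is lower in mutants at both doses, and wdr43 overlaps in all groups.

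Other ribosome assembly genes were mostly called higher with arsenite or not called. Of 37 other small-subunit factors tested 28 rose and none fell in wild type, and 34 rose and none fell in mutants, with median log2 changes of 0.59 and 0.94. Of 57 genes listed as other large-subunit factors 38 rose and 1 fell in wild type, and 44 rose and 1 fell in mutants, with medians of 0.46 and 0.72. That list also holds mrm3a and mrm3b, whose human relative acts on mitochondrial ribosomal RNA. It holds nolc1 and tcof1 too, which are not specific to the large subunit. The small-subunit factor ABT1 went from 8.47 ± 0.532 to 20.9 ± 2.09 CPM in wild type (SD, n = 5 each, log2 1.30 ± 0.10 SE, edgeR adjusted p = 1.93e-09) and from 7.33 ± 0.982 to 24.1 ± 0.754 in mutants (log2 1.71 ± 0.10, edgeR adjusted p = 1.44e-11). The large-subunit factor that fell was NSA2, by log2 -0.60 ± 0.09 in wild type and -0.49 ± 0.09 in mutants (edgeR adjusted p = 1.5e-05 and 0.000108). Scaled to library totals its changes were 0.12 and 0.36.

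RNA polymerase I subunits and its initiation factors rose for 13 of 18 in each genotype and fell for none, with medians of 0.70 and 1.02. That list also holds POLR2E, POLR2F, POLR2H, POLR2K and POLR2L, which are not specific to RNA polymerase I. POLR1D, a subunit shared with RNA polymerase III, rose from 8.84 ± 1.73 to 22 ± 3.94 CPM in wild type and from 8.01 ± 1.19 to 27.9 ± 2.19 in mutants (SD, n = 5). The initiation factor RRN3, which recruits the polymerase to its promoter, was higher in exposed mutants than in exposed wild type by log2 0.73 ± 0.13 (edgeR adjusted p = 0.000349), and its response differed by 0.82 ± 0.18 (edgeR adjusted p = 0.0152). Components and cofactors of the RNA exosome, which trims ribosomal RNA precursors, rose for 10 of 15 and fell for 1 in wild type, and rose for 14 and fell for 1 in mutants. The one that fell was EXOSC1, by -0.81 ± 0.20 and -0.92 ± 0.20 on the log2 scale (edgeR adjusted p = 0.00208 and 0.00053), and scaled to library totals it was at -0.09 and -0.08.

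Ribosomal proteins went the other way from the assembly factors under TMM, with all 74 falling in both genotypes and a median log2 change of -0.64 in each. Scaled to library totals that fall was absent, with medians of 0.09 in wild type and 0.20 in mutants and with 5 and 49 of 74 called higher and none lower. That scaling shifts the changes of all genes upward, with 9738 and 9842 of 16389 called higher and medians of 0.75 and 0.83. Still, 1313 and 1962 were called lower. The assembly factor medians on that scale were 1.18 and 1.56. RPL3 went from 4150 ± 373 to 2460 ± 158 CPM in wild type and from 3580 ± 219 to 1860 ± 54.3 in mutants (SD, n = 5). Its log2 change scaled to library totals was -0.04 in wild type and -0.1 in mutants. Mutants had less of 49 of 74 ribosomal proteins without arsenite and of 63 with it. Scaled to library totals those counts were 6 and 0.

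**Figure D4:**
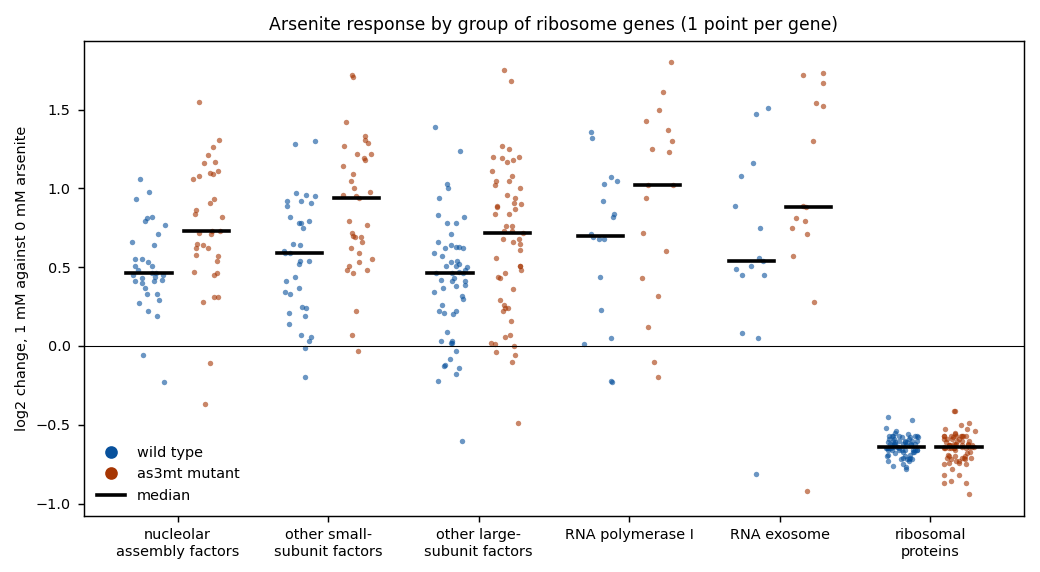
Log2 change with arsenite (edgeR, TMM) of each gene in 6 groups of ribosome genes, with 1 point per gene, wild type on the left of each pair and mutants on the right, and a line at the median. Assembly factors, RNA polymerase I genes and exosome genes lie mostly above 0 and ribosomal proteins all below 0. No ribosomal protein was called lower when counts were scaled to library totals.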

How the data were processed

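The authors deposited raw whole-number counts per Ensembl gene, with 1 table per library, and these counts were used as they are. Per the submitters' processing notes the tools include FastQC 0.11.5 and Trimmomatic 0.36, and the genome build is GRCz10. The annotation release, the aligner and the counting tool are not given in the sources used here. Both TruSeq V2 and NEBNext Ultra II Directional stand as the library kit, per the labels, so it is not known whether counting used strand, and reads of overlapping or antisense genes cannot be told apart. Reads of near-identical gene copies may have been split between them.

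Groups came from the sample titles. The members and all gene lists were chosen with earlier results of these data known. Symbols came from a table naming 26269 of 32105 identifiers (81.82%). Entries were matched without regard to case, then without a final a or b, then with an a or b added. By these steps the entry rps27 took the identifier of rps27a. The entries rpl27a, rpl36a and rpl37a fell on the identifiers of rpl27, rpl36 and rpl37, and each identifier was counted once. Unmatched entries were left out, 1 of 36 members and 3 of 41, 2 of 57, 6 of 24 and 2 of 76 for the other small-subunit, other large-subunit, RNA polymerase I and ribosomal protein lists. No coordinates or sequences are given.

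Genes were kept by filterByExpr, scaled by TMM and fitted with 4 group means over all 20 libraries in edgeR 4.0.16 (R 4.3.3, common biological coefficient of variation 0.282). Comparisons were tested 2-sided by the quasi-likelihood F test and adjusted by Benjamini-Hochberg over all 16389 tested genes, with a call at an adjusted p under 0.05. Rose, fell, raised, lowered, higher and lower refer to such calls. Standard errors are the absolute log2 change over the square root of F. Principal components used log2 CPM with a prior count of 2. Scripts were tested on simulated counts. Alternatives were DESeq2 1.42.0 size factors and Wald test, scaling to library totals, no filter, a mean of at least 10 CPM, robust dispersions, only the libraries compared, a replicate block, and leaving out each library. Leaving out both libraries that stand apart was added after seeing the data. Per-library values are given for the members of smallest and largest adjusted p in each role, the 3 of smallest p in each genotype comparison and in the difference of responses, and called members against the median. Values of utp18 were added after they were seen, as the fourth call in the difference of responses. Of other lists, some of the up to 3 genes of smallest adjusted p in each direction are named. Plots used matplotlib 3.10.9, pandas 2.3.3 and numpy 2.4.6 under Python 3.11.15.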

Additional observations from a re-analysis of the deposited data

Results flagged for a closer look

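Among 144 sets of 5 libraries, 1 per gene and group, 9 held a library far from the other 4, where chance gives about 1 in 20, or 7.2. Unexposed mutant replicate 4 was high for heatr1 (60.1 CPM, others 30.8 to 39), nol11 (28.8, others 20.5 to 22.4) and mybbp1a (80 CPM, others 51 to 54.9). Exposed wild-type replicate 1 was high for heatr1 (59.19 CPM, others 48.1 to 50) and utp4 (46.5, others 39.1 to 40.6). The remaining single libraries were exposed mutant replicate 2 for nop56 (159 CPM, others 150 to 152), exposed wild-type replicate 3 for wdr12 (low at 21.4, others 24.7 to 26), unexposed wild-type replicate 1 for ebna1bp2 (45.4, others 40.1 to 41.2) and unexposed mutant replicate 5 for ncl (523, others 424 to 449).

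The arsenite response differed between genotypes by a test of the difference itself for bms1 (log2 0.70), utp18 (0.64), ebna1bp2 (0.63), rrp12 (0.62) and the PES1 entry (0.48, edgeR adjusted p = 0.034). The PES1 call was lost with no filter on low counts (edgeR adjusted p = 0.0712), with a replicate block within genotype (edgeR adjusted p = 0.052) and when single libraries were left out, among them exposed mutant replicate 3 (edgeR adjusted p = 0.0696).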

How the results depend on the processing

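Called counts for arsenite among the 35 members stayed within 1.5 times under the alternatives run, with exceptions among the lowered members: scaling to library totals left 0 lowered in mutants, and nop56 became 1 lowered member in wild type without exposed wild-type replicate 5 or unexposed wild-type replicate 3. Leaving out single libraries gave 25 to 32 called members in wild type, 24 to 32 of them raised and 0 to 1 lowered, and 31 to 34 in mutants. Scaling to library totals reversed nop56 (to 0.48 in wild type and 0.46 in mutants) and wdr43 (to 0.66 and 0.72), and in all genes gave 9738 raised and 1313 lowered in wild type, against 4704 and 4035 with TMM, and 9842 and 1962 in mutants, against 5166 and 4966. For genotype without arsenite the count of 5 lower members became 0 scaled to totals, 3 with no filter, 1 at a mean of at least 10 CPM, 2 with only the libraries compared, and 2 to 6 leaving out a library. For genotype with arsenite the 3 called members became 26 scaled to totals (26 higher and 0 lower, and 5470 called genes in all), 7 at 10 CPM (6 higher), 6 with only the libraries compared (5 higher), 5 without the 2 libraries that stand apart (4 higher), and 3 to 5 leaving out a library (2 to 4 higher). The difference of responses kept 4 called members, or 3 with no filter and 3 to 5 leaving out a library. Over all genes the 10 CPM filter, which tests fewer genes, called 4511, 4959, 1094 and 1969 for arsenite in wild type, in mutants, and genotype without and with arsenite. For the difference of responses the DESeq2 Wald test called 1083 genes and leaving out a library 383 to 793. The cause of the other changes was not tested.

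Replicate numbers were not taken as pairing, since the deviations of equally numbered libraries correlated at 0.0155 to 0.205 across arsenite in wild type and 0.0466 to 0.189 in mutants, and not every value was above 0.1. In each genotype 4 of 5 numbers correlated best with their own number across arsenite, replicate 3 being the exception, which is a hint of pairing from the data. The sample titles carry the same numbers in every group, as tags cl1 to cl5, and do not say what the tag means. Between the genotypes the correlations ran from 0.025 to 0.199 without and from -0.0796 to 0.398 with arsenite, and 2 and 4 of 5 numbers correlated best with their own. With a replicate block over all libraries 31 members were called in wild type, 33 in mutants, 5 and 3 for genotype without and with arsenite, and 4 for the difference. With the block within genotype the counts were 29, 33 and 4 for arsenite in wild type, in mutants and the difference, with nop10 (edgeR adjusted p = 0.0507) and ncl (0.0603) no longer called in wild type. The difference for the PES1 entry was then not called either (edgeR adjusted p = 0.052).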

Other observations

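Of 21 tested cell division genes 19 rose and none fell with arsenite in wild type, with a median log2 change of 2.64, and in mutants 15 rose and 4 fell, with a median of 2.25. The mitotic kinase CDK1 went from 2.59 ± 0.385 to 28.5 ± 8.79 CPM in wild type and from 3.22 ± 1.05 to 28.4 ± 8.04 in mutants (SD, n = 5 each). The genes that fell in mutants included the replication helicase subunits MCM5 (log2 -0.67 ± 0.20 SE), MCM2 (-0.60 ± 0.18) and MCM6 (ENSDARG00000057683, -0.54 ± 0.18), with edgeR adjusted p of 0.00624, 0.00706 and 0.0117. Scaled to library totals these changes were 0.16, 0.23 and 0.30. Values of the other MCM6 identifier, ENSDARG00000033231, are not given. In wild type all 21 genes had a positive log2 change, the smallest at 0.22. The difference of responses, mutant minus wild type, had a median of -0.6 over the 21. It was called more negative for 3 and more positive for 0, against 2.67% and 1.31% of all tested genes. The summed level of the list was 117 to 173 CPM in unexposed and 344 to 752 in exposed wild type, and 140 to 226 and 336 to 573 in mutants.

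Of 13 genes of the Myc family and its partners, transcription factors known to act on many ribosome genes, 2 rose and 6 fell in wild type and 2 rose and 7 fell in mutants. Among all tested genes 28.7% rose and 24.6% fell in wild type, and 31.5% rose and 30.3% fell in mutants. Scaled to library totals 3 of the 13 rose and 1 fell in wild type and 4 rose and 2 fell in mutants. On that scale 9738 of all 16389 tested genes rose and 1313 fell in wild type, and 9842 rose and 1962 fell in mutants. MYC (ENSDARG00000045695) went from 18.8 ± 7.73 to 35.2 ± 3.73 CPM in wild type (log2 0.91 ± 0.27 SE, edgeR adjusted p = 0.00702) and from 17.2 ± 7.03 to 53.3 ± 11.4 in mutants (log2 1.63 ± 0.27, edgeR adjusted p = 2.47e-05). The other MYC identifier, ENSDARG00000007241, was not called higher in either genotype. Its values, and whether it fell, are not given. MNT (ENSDARG00000073988), a repressor of the family, went from 11.5 ± 3.2 to 3.15 ± 1.06 CPM in wild type and from 7.41 ± 1.48 to 2.56 ± 0.585 in mutants. Values of the other MNT identifier, ENSDARG00000101859, are not given. MYCL, another family member, changed by log2 -1.15 ± 0.27 in wild type and -0.94 ± 0.27 in mutants (edgeR adjusted p = 0.00124 and 0.00458), or by -0.44 and -0.10 scaled to library totals. MYCN, at a low level, went from 1.1 ± 0.432 to 0.589 ± 0.245 CPM in wild type (SD). Its log2 change there was -0.90 ± 0.32 SE (edgeR adjusted p = 0.0238), or -0.18 scaled to library totals.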
